A study of Mus musculus with 8 samples.

Results

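From the contractile apparatus of smooth muscle 10 genes were followed: *Acta2*, *Actc1*, *Tagln*, *Myl9*, *Cnn1*, *Cnn2*, *Tpm1*, *Tpm2*, *Actg2* and *Mylk*. They are 10 of the 28014 genes counted, and all 10 had counts in pre-hemogenic endothelium (pre-HE). They were chosen by their counts in pre-HE against the other endothelium, where several of them stood high, so their levels by cell type are given as a description, without a test. The data are CITE-seq profiles, which count RNA molecules as unique molecular identifiers (UMIs) beside antibody tags, of CD31-positive cells sorted from the aorta-gonad-mesonephros (AGM) region of mouse embryos at E10.5. There were 5 WT libraries, labelled C57BL/6, although the cells of WT 5 carry names that begin with Mf, a prefix the labels do not explain. The study writes the floxed *Meis1* allele as M with a superscript f and calls littermates without Cre WT. Whether WT 5 carries that allele is not stated. A further 3 libraries, Meis1_cKO, were labelled Meis1-flox/VE-Cre. In them a Cre driven by the VE-cadherin promoter deletes *Meis1*, a homeobox transcription factor, from endothelium and from cells that descend from it. Each library was a pool of 2 to 5 embryos. Of 15168 cells in 10 named cell types, 248 were pre-HE, 171 in WT and 77 in Meis1_cKO.

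Smooth muscle contracts when the kinase encoded by *Mylk* phosphorylates the regulatory light chain encoded by *Myl9*, so that myosin pulls on thin filaments of actin, tropomyosin and calponin. *Acta2* and *Actg2* encode the vascular and enteric smooth muscle actins and *Actc1* the cardiac actin, which embryonic muscle of several kinds also uses. *Tagln* encodes transgelin, an actin-binding protein, *Cnn1* and *Cnn2* calponins, and *Tpm1* and *Tpm2* tropomyosins. Many of these genes are controlled by serum response factor, which binds a promoter element called the CArG box, and endothelial cells that change toward a mesenchymal state are known to switch some of them on. Pre-HE is the endothelium from which hemogenic endothelium, and then blood progenitors, arise in the dorsal aorta.

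Because the genes share this known regulation, the promoter windows were read from RefSeq in build GRCm38.p6, from 250 bases before to 50 bases after the start site. Of the 10 genes, 8 matched an entry. *Tagln* and *Actg2* did not. A CArG box, with its central run of A or T, was searched on both strands, where it reads the same way, and stood in the windows of *Actc1*, *Myl9* and *Cnn2*, which is 3 of 8. Over all 32851 windows 1.63% held one. The motif TGACAG, searched on both strands and known as a core bound by Meis factors, stood in 1 of the 8 windows, that of *Tpm2*, and in 19.2% of all windows. The windows with a CArG box are shown with that of *Acta2*, which held no exact match; capitals mark the CArG box.
Actc1 (chr2:114052826-114053125, minus strand): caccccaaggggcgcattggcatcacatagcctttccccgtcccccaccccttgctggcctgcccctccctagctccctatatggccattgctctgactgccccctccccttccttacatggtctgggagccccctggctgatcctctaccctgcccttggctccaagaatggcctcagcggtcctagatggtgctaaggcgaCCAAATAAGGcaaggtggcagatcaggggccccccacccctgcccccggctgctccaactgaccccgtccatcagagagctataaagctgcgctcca
Myl9 (chr2:156775214-156775513, plus strand): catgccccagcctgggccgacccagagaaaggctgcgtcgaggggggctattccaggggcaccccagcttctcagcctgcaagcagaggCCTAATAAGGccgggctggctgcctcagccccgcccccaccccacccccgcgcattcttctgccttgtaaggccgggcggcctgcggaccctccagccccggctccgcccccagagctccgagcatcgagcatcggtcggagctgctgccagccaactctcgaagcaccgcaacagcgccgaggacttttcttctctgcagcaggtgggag
Cnn2 (chr10:79988350-79988649, plus strand): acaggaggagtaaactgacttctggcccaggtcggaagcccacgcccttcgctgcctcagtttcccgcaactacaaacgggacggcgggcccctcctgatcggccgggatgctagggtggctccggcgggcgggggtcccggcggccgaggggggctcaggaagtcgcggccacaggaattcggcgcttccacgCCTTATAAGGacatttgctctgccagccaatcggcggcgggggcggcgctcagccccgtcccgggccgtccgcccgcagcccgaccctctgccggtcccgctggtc
Acta2 (chr19:34255324-34255623, minus strand): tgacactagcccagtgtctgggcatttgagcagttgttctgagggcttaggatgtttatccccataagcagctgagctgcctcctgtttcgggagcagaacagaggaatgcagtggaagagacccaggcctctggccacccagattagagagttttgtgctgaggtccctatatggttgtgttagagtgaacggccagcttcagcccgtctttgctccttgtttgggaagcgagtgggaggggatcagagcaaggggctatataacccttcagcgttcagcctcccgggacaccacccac
The box began 47 bases before the start site in *Actc1*, 161 bases before it in *Myl9* and 56 bases before it in *Cnn2*. These matches describe the letters of the windows and say nothing about binding.

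Total UMIs per library ran from 20484881 to 79429129. The libraries were not equally deep: the median cell held 26572 to 28553 UMIs in WT 1 to 4, 12721 in WT 5, and 9612 to 14895 in Meis1_cKO, so that WT 5 was the only WT library near the depth of the Meis1_cKO libraries. The pre-HE cells were split unevenly, with 39, 18, 11, 87 and 16 from WT 1 to 5 and 29, 33 and 15 from Meis1_cKO 1 to 3. *Meis1* itself was read at 38.7, 51.4, 32.4, 23.7 and 12.9 counts per 1000000 UMIs (CPM) in WT pre-HE and at 29.7, 9.57 and 53.1 CPM in Meis1_cKO pre-HE. The genotypes overlapped there, whereas in erythro-myeloid progenitors *Meis1* stood at 56.7 to 77.0 CPM in the WT libraries and at 21.0 to 36.4 CPM in Meis1_cKO, without overlap. A 3′ tag can lie outside the deleted exon, so the level in pre-HE is a weak check of the labels. More than 1 library held each of 33 cell barcodes, found in 66 cells, 2 of them pre-HE.

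In WT, *Acta2*, *Tagln* and *Actg2* had their highest mean in pre-HE, while *Myl9*, *Actc1*, *Cnn1*, *Cnn2*, *Tpm1*, *Tpm2* and *Mylk* had theirs in megakaryocytes. *Acta2* stood at 86.6, 74.7, 201, 362 and 283 CPM in pre-HE of WT 1 to 5. In arterial endothelial cells (aEC) of the same libraries its mean was 0.720 ± 0.487 CPM (SD, n = 5), and in cells undergoing the endothelial-to-hematopoietic transition (EHT) 71.7 ± 31.1 CPM. Pre-HE lay above EHT in all 5 libraries, by 1.33 ± 0.83 on the log2(CPM + 1) scale, although the ranges of the cell types overlapped. *Tagln* stood at 146, 46.7, 246, 389 and 258 CPM in WT pre-HE, against 5.49 ± 3.5 CPM in aEC and 27.1 ± 13.4 CPM in EHT. *Myl9* stood at 68.2, 42.0, 64.8, 106 and 103 CPM, against 11.5 ± 1.54 CPM in aEC. All 3 genes were at least 2-fold higher in pre-HE than in aEC in every WT library. With at least 10 counts, 3.25% of genes met that rule in WT, and 3 of the 8 contractile genes with that many counts did. In Meis1_cKO *Actc1* and *Cnn1* met it as well, giving 5 of 9 contractile genes against 4.12% of genes, and nothing is read from either share because this contrast chose the genes. Against EHT, *Tagln* and *Tpm1* met the 2-fold rule in WT (7.24% of genes), and *Acta2*, *Actc1*, *Tagln*, *Myl9*, *Cnn1* and *Tpm1* in Meis1_cKO (9.03%). Against the pooled endothelial clusters vEC_1 to vEC_4, *Acta2*, *Tagln*, *Myl9* and *Tpm1* met it in WT (3.31%), and these with *Actc1* and *Cnn1* in Meis1_cKO (4.51%).

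The other genes did not set pre-HE apart in this way. *Tpm1* was read at 459 ± 71.5 CPM in WT pre-HE and 232 ± 22.9 CPM in aEC, and was higher in pre-HE in all 5 libraries by 0.97 ± 0.12 on the log2(CPM + 1) scale. *Cnn2* was read at 213 ± 55.3 CPM in pre-HE and 222 ± 22.8 CPM in aEC and was thus spread over the endothelium. *Mylk* was read at 21.6 ± 17.4 CPM in pre-HE and 6.48 ± 3.25 CPM in aEC. *Tpm2*, at 13.8 ± 14.1 CPM in pre-HE, was higher in EHT in all 5 WT libraries and reached 218 ± 47.6 CPM in megakaryocytes and 145 ± 29.7 CPM in Myeloid cells. *Actc1*, *Cnn1* and *Actg2* stayed at 4.70 ± 3.25, 1.48 ± 2.41 and 1.09 ± 2.03 CPM in WT pre-HE. *Actc1*, *Cnn1* and *Actg2* rested there on few counts, and *Acta2*, *Actc1* and *Actg2* have closely similar coding sequences, so reads in shared stretches could be split between them.

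**Figure D1:**
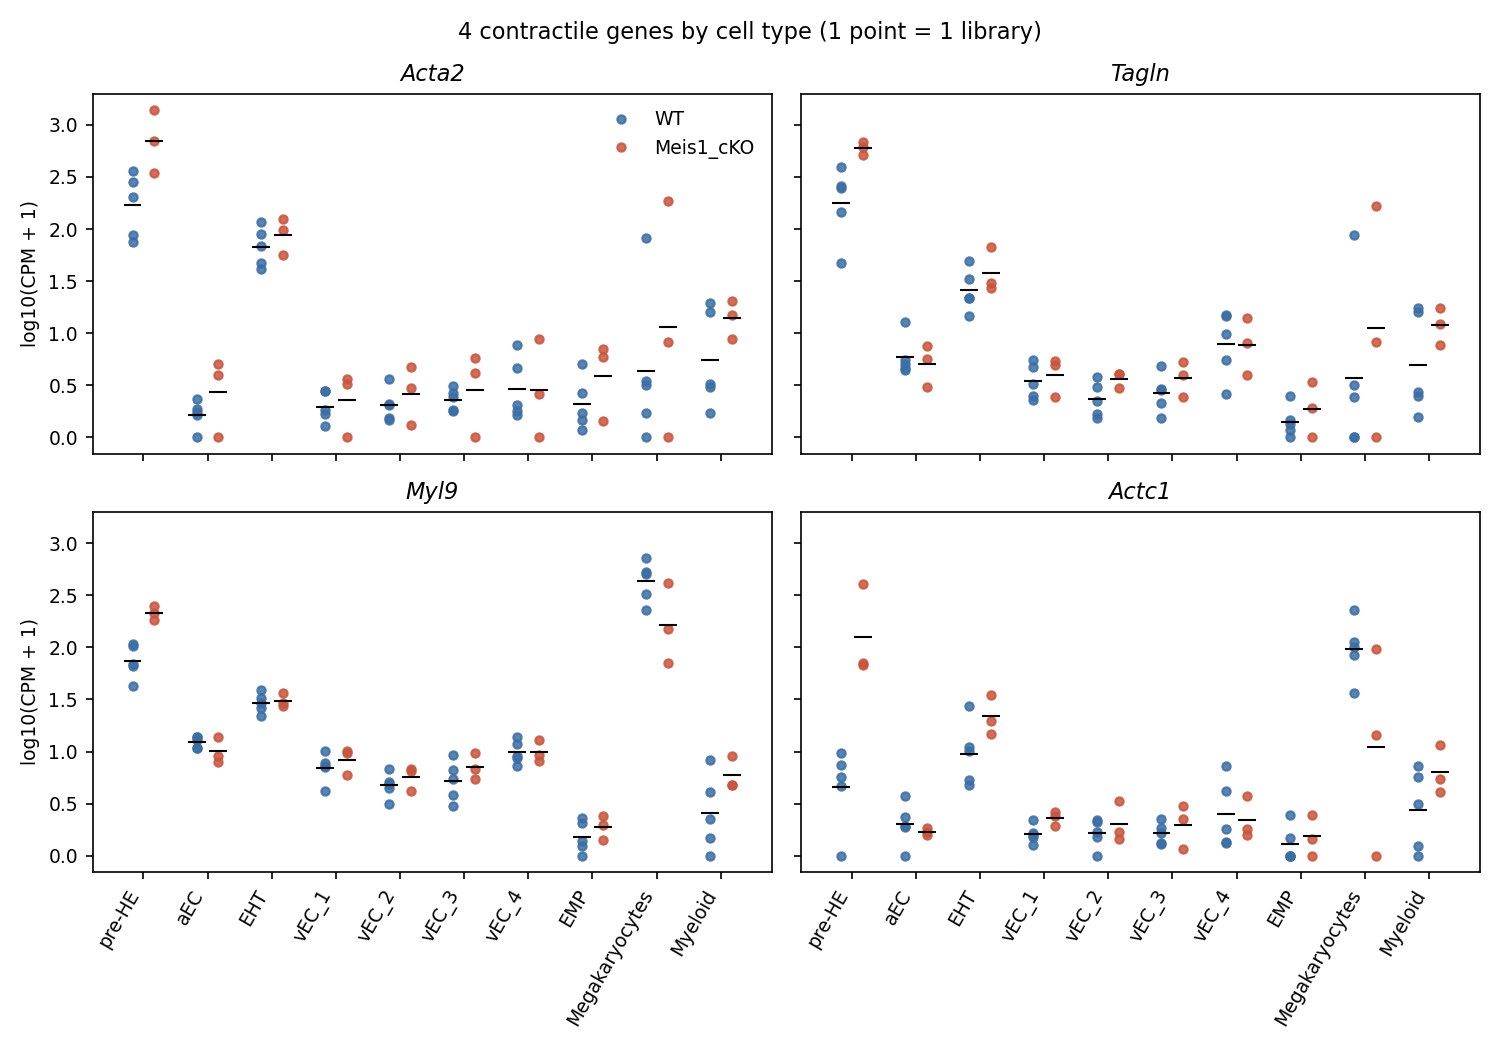
Levels of *Acta2*, *Tagln*, *Myl9* and *Actc1*, as log10(CPM + 1), in summed counts of each of 10 cell types; each point is 1 library, lines are means, blue is WT (n = 5) and red Meis1_cKO (n = 3). *Acta2* and *Tagln* stand highest in pre-HE in both genotypes, whereas *Myl9* and *Actc1* of WT stand highest in megakaryocytes.

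In aEC *Acta2*, *Actc1*, *Cnn1* and *Actg2* were close to their detection limit. *Cnn2* and *Tpm1* were not, with UMIs in 833 and 808 of 888 WT aEC without thinning. After each cell was thinned to 5000 UMIs, an *Acta2* UMI was found in 23.6% ± 11.2 of WT pre-HE cells (SD, n = 5 libraries; 30.8% ± 10.4 without thinning), in 16.9% of EHT cells and in 0.355% of aEC. Erythro-myeloid progenitors (EMP), blood cells in which a contractile programme is not known, had one in 0.339% of WT and 2.57% of Meis1_cKO cells, at median depths above those of pre-HE. Median depths were 12884 UMIs in WT pre-HE cells and 6354 in Meis1_cKO pre-HE cells, and thinning left out 13 of the 77 Meis1_cKO cells and none of the 171 WT cells. *Tagln* and *Myl9* were found in 31.0% and 23.7% of thinned WT pre-HE cells, *Tpm1* in 78.7%, *Cnn2* in 55.7% and *Actc1* in 3.33%. *Cdh5*, which encodes VE-cadherin, was found in 100% of them.

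*Acta2*, *Tagln* and *Myl9* counts were gathered in few pre-HE cells, while *Tpm1* and *Cnn2* counts were spread over most of them. *Actc1* had 15 UMIs in WT pre-HE, too few for its spread to be read there. At least 50% of the *Acta2* UMIs lay in 2 of 39, 2 of 18, 2 of 11, 2 of 87 and 1 of 16 cells of WT 1 to 5, and in 2 of 29, 2 of 33 and 1 of 15 cells of Meis1_cKO 1 to 3. A single cell held 42.6%, 25%, 38.7%, 41.1% and 86.4% of the *Acta2* UMIs in WT 1 to 5 and 49.5%, 35.2% and 97.4% in Meis1_cKO 1 to 3. *Cdh5* showed the opposite spread in the same cells: 50% of its UMIs lay in 29.9% to 37.5% of cells in WT and in 33.3% to 36.4% in Meis1_cKO. Its UMIs were more, 2448 against 596 of *Acta2* in WT, and fewer UMIs fall in fewer cells by themselves. *Cnn2*, with 551 UMIs in WT, had 50% of them in 16.7% to 31.25% of cells, and *Acta2* in 2.30% to 18.2%. For *Tagln* and *Myl9* the median library had 50% of the UMIs in 11.1% and 10.3% of WT cells and in 6.67% and 9.09% of Meis1_cKO cells. *Tpm1* and *Cnn2* were found in 154 and 147 of the 171 WT cells, with UMIs in 76 and 79 of the 87 cells of WT 4, where *Acta2* had them in 29 and *Tagln* in 41. Over all 10 genes together, of whose 3124 UMIs in WT *Tpm1* gave 995 and *Cnn2* 551, 50% lay in 8.05% to 27.3% of WT pre-HE cells, with a median library at 22.2%, against 27.5% in WT aEC. In Meis1_cKO it was 6.67% to 9.09% of pre-HE cells, with a median of 6.90%, against 26.5% in aEC.

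In the median pre-HE cell the 10 genes together took 506, 738, 776, 748 and 1244 CPM in WT 1 to 5 and 821, 849 and 373 in Meis1_cKO 1 to 3. These medians overlapped between the genotypes. The highest cell, by contrast, reached 6096, 1815, 2748, 21180 and 3966 CPM in WT and 30750, 21960 and 17560 in Meis1_cKO. In 9 pre-HE cells the 10 genes took over 1% of all UMIs, a limit set after these values were seen: 2 were from WT 4 and 7 from the Meis1_cKO libraries, which held 3, 3 and 1 of them. The lowest of the 9 stood at 1.19% and the next cell below the limit at 0.817%. Whether the 9 cells form a separate type was not tested. Outside pre-HE, 5 of 359 megakaryocytes and no cell of the other 8 types passed it.

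**Figure D2:**
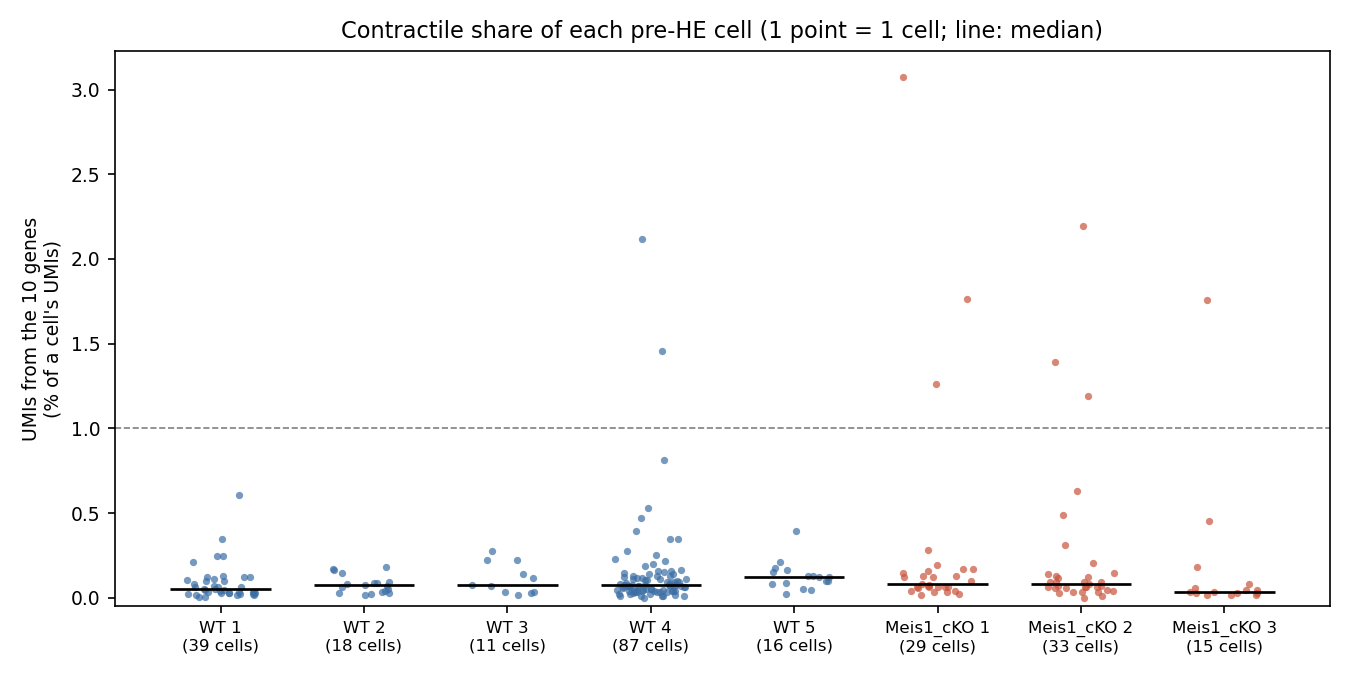
Share of a cell's UMIs that came from the 10 contractile genes, in percent, for each of the 248 pre-HE cells by library; points are cells, black lines medians, and the dashed line marks 1%. Medians lie far below the dashed line in all libraries, and the 9 cells above the dashed line belong to WT 4 and to the 3 Meis1_cKO libraries.

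Endothelial counts were present in nearly every pre-HE cell, with or without contractile counts. The cells were sorted for CD31 and named pre-HE by clustering these same RNA counts. Cells without endothelial RNA could thus have been named otherwise, so this presence was largely set in advance. *Cdh5* was found in 171 of 171 WT and 77 of 77 Meis1_cKO cells, and *Pecam1*, which encodes the CD31 used for the sort, in 168 and 72, so their presence alone cannot set cells with *Acta2* apart. Of the 52 WT cells with an *Acta2* UMI, 52 held both, and of the 21 such Meis1_cKO cells 21 held *Cdh5* and 19 *Pecam1*. Among 20 endothelial genes the median number detected was 18 both in WT cells with an *Acta2* UMI and in WT cells without one. In Meis1_cKO it was 16 in cells with *Acta2* and 17 in cells without. The 9 cells above 1% held 20 to 188 *Acta2* and 22 to 101 *Tagln* UMIs together with 2 to 15 *Cdh5* UMIs, 1 to 10 *Pecam1* UMIs and 13 to 19 of the 20 endothelial genes. Their endothelial level was lower than that of the other pre-HE cells in each of the 4 libraries that hold them, at 12280 against 14390 CPM in WT 4 and at 9903 against 13130, 10540 against 12150 and 11490 against 13050 CPM in Meis1_cKO 1 to 3. *Cdh5* stood at 821 against 986 CPM in WT 4 and at 531 against 1087, 963 against 820 and 773 against 942 CPM in Meis1_cKO 1 to 3. These differences rest on 1 to 3 cells a library and were not tested.

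*Acta2* and *Tagln* UMIs met in the same cells. *Tagln* was found in 35 of 52 WT cells with *Acta2* and in 37 of 119 without it, and in Meis1_cKO in 15 of 21 and 11 of 56. Among cells with at least 5 *Acta2* UMIs, 15 of 15 WT and 10 of 10 Meis1_cKO cells held *Tagln*. Over the cells of a library, the Spearman correlation between the *Acta2* and *Tagln* shares of UMIs ran from 0.325 to 0.735 in 8 libraries of 11 to 87 cells. That between *Acta2* and *Cdh5* ran from -0.317 to -0.022, and that between *Acta2* and the UMIs of the cell from -0.109 to 0.634. These values describe sparse counts that share a library and a depth.

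Single defining markers of the cell types that make smooth muscle genes in quantity were at 0 or low, but the wider mural and mesenchymal list was not. *Myh11*, the smooth muscle myosin heavy chain, *Des*, which encodes desmin, *Pdgfrb*, a pericyte receptor, and *Nkx2-5*, a cardiac transcription factor, had 0 counts in pre-HE of all 8 libraries. At the depth of these sums, 2331096 UMIs in WT and 524071 in Meis1_cKO, a count of 0 allows up to 1.29 CPM and 5.72 CPM, taking 3 counts as the limit. *Pdgfra* and *Col1a1*, marking mesenchyme, each stayed at or below 6.48 CPM, and *Tnnt2*, cardiac troponin T, stood at 3.69, 0, 0, 1.58 and 19.3 CPM in WT and 9.90, 9.57 and 17.7 CPM in Meis1_cKO. Over the whole list of 18 mural and mesenchymal genes, 10 had counts in WT and 8 in Meis1_cKO, with summed levels of 51.5 to 112 CPM and 35.4 to 79.2 CPM. In aEC the same list summed to 10.97 to 15.54 CPM in WT and 15.17 to 17.66 CPM in Meis1_cKO. In EHT it summed to 10.02 to 45.14 CPM and 14.59 to 29.14 CPM. Within each genotype pre-HE thus lay above aEC and EHT without overlap. Megakaryocytes, at 13.11 to 88.59 CPM and 45.55 to 64.23 CPM, overlapped with pre-HE. These differences were not tested. Of 12 cardiac genes, 5 had counts in each genotype, with summed levels of 14 to 64.4 CPM and 33.5 to 44.2 CPM. The 9 cells above 1% held 5627 to 17941 UMIs each, so a low level of a marker could be missed in them. From both lists only defining markers are given for these cells. They held none of *Myh11*, *Des*, *Pdgfrb*, *Pdgfra*, *Col1a1*, *Tnnt2* and *Nkx2-5*. *Acta2*-rich cells of other types were different in this respect: a UMI of *Pdgfrb*, *Pdgfra* or *Col1a1* was found in 4 of 4 WT and 2 of 2 Meis1_cKO megakaryocytes with at least 5 *Acta2* UMIs and in 4 of 4 and 7 of 9 such Myeloid cells, but in 1 of 15 and 0 of 10 such pre-HE cells. Those cells were deeper than pre-HE cells, and the difference was not tested.

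Whether pre-HE cells with more contractile RNA held less endothelial RNA was asked within each library. Its cells were ranked on the share of UMIs from the 10 genes, divided at the median, and the high group was compared with the low group. The median cell held 0 *Acta2* UMIs in each library but 2 to 8 *Tpm1* UMIs. The division thus rested more on *Tpm1* and *Cnn2* than on *Acta2*, and the result does not speak for *Acta2*-rich cells alone. A ranking by *Acta2* is among the alternatives given at the end. The 20 endothelial genes took 13220 ± 1308 CPM of the remaining UMIs in the high group and 14080 ± 1463 in the low group (SD, n = 8 libraries). The log2 ratio of high to low was -0.20, 0.05, -0.07, -0.09 and 0.01 in WT 1 to 5 and -0.22, -0.03 and -0.17 in Meis1_cKO 1 to 3. It was higher in the high group in 2 of 8 libraries, and its mean of -0.09 ± 0.10 did not pass the two-sided exact sign-flip permutation test (p = 0.0547, adjusted p = 0.193 over 11 lists; the smallest p that 8 libraries allow is 0.00781). The mean was -0.08 in WT 1 to 4 and -0.10 in the 4 shallower libraries.

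**Figure D3:**
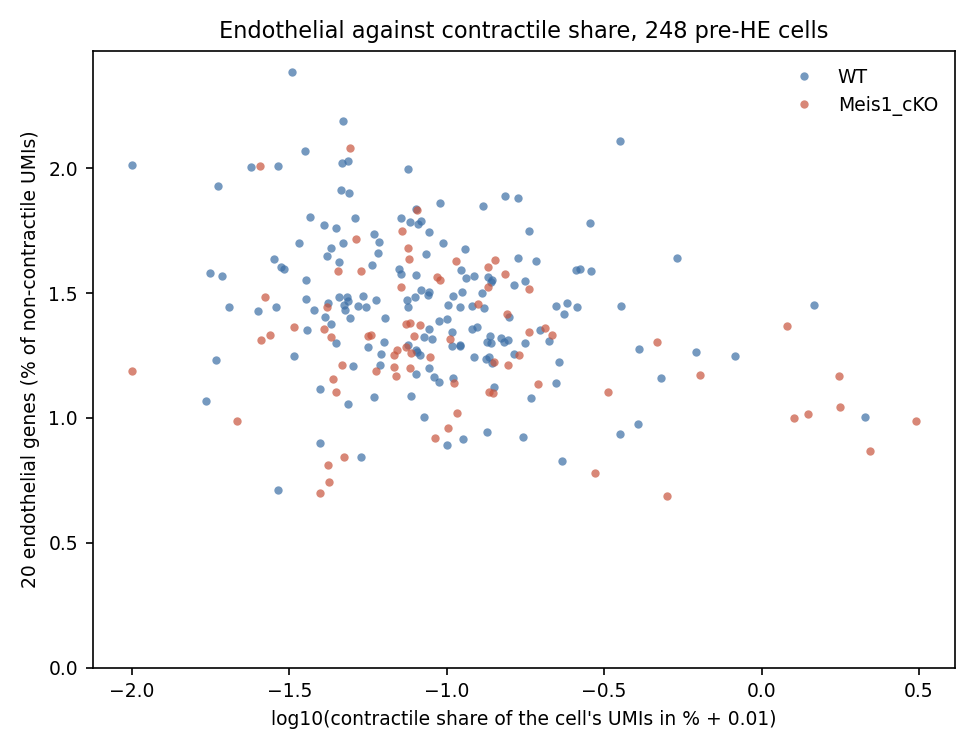
UMIs of 20 endothelial genes, in percent of the UMIs outside the 10 contractile genes (vertical, from 0), against the contractile share of the cell, as log10 of percent + 0.01 (horizontal); each point is 1 of 248 pre-HE cells, blue WT and red Meis1_cKO. The cells at the far right, with the highest contractile shares, still hold endothelial UMIs. All cells shown were named pre-HE from these same RNA counts.

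Of the other 10 lists, 0 passed at an adjusted p under 0.05 by the exact sign-flip permutation test, and 2, the arterial and erythroid genes, had an unadjusted p under 0.05. The 9 arterial genes, among them *Dll4*, *Gja5* and *Efnb2*, came nearest: they were lower in the high group in 8 of 8 libraries, by a mean log2 ratio of -0.22 ± 0.11 (exact sign-flip permutation p = 0.00781, the smallest possible, adjusted p = 0.0859). Mural and mesenchymal genes differed by 0.35 ± 1.06 and cardiac genes by 0.80 ± 1.52, with adjusted p of 0.612 and 0.430 in the same exact test. Lists of pre-HE, EHT, erythroid, skeletal muscle, myeloid, TGF-beta and cell cycle genes gave mean log2 ratios of -0.29, -0.78, -1.28, 0.27, 0.05, 0.10 and 0.15, with adjusted p of 0.172 to 0.930 in that exact test. The spread between libraries exceeded 1 on the log2 scale for 6 of the 11 lists. Cells near the dividing share were many: 62 of 248 lay within a factor of 0.8, up or down, of their library's median. The high group was the deeper in 6 of 8 libraries.

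CD44 protein marks pre-HE in this design and was measured by tag in WT 5 and the Meis1_cKO libraries. High and low groups held 48.9 and 30.4 tag counts per cell in WT 5, 65.1 and 37.1 in Meis1_cKO 1, 47.1 and 51.4 in Meis1_cKO 2, and 19.0 and 23.0 in Meis1_cKO 3. The direction was thus not shared. The mean log2 ratio was 0.27 ± 0.55 (exact sign-flip permutation p = 0.5, and 4 libraries cannot give less than 0.125). *Cd44* RNA did not pass between the genotypes in pre-HE either (log2 fold change 0.64 ± 0.30 (SE), edgeR adjusted p = 0.679).

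Genotypes were compared on counts summed over the pre-HE cells of each library, 5 WT against 3 Meis1_cKO, with the edgeR quasi-likelihood test. Across all genes 18 of 3682 tested, or 0.489%, passed at an adjusted p under 0.1, 13 of them (0.353%) higher in Meis1_cKO. Of the 6 contractile genes with enough counts to be tested, *Actc1*, *Acta2*, *Myl9* and *Tagln* passed, all 4 higher in Meis1_cKO, and *Tpm1* and *Cnn2* did not. A summed count cannot tell more RNA per cell from more cells with RNA, and the cell counts above bear on these values.

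*Actc1* had enough counts to be tested only through Meis1_cKO, since WT libraries held 0 to 11 UMIs each, so a gene that passed the filter in this way had to differ. *Actc1* stood at 69.3, 67.0 and 407 CPM in Meis1_cKO and at 3.69, 4.67, 0, 8.70 and 6.44 CPM in WT, without overlap (log2 fold change 4.59 ± 0.63 (SE), edgeR adjusted p = 0.00116). *Acta2* stood at 1391, 694 and 345 CPM in Meis1_cKO, and WT 4, at 362 CPM, lay above the lowest of them (2.01 ± 0.39, edgeR adjusted p = 0.0191). *Myl9* stood at 183, 211 and 248 CPM against at most 106 CPM in WT (1.40 ± 0.26, edgeR adjusted p = 0.0154). *Tagln* stood at 614, 684 and 513 CPM against at most 389 CPM in WT (1.45 ± 0.34, edgeR adjusted p = 0.084). *Actc1*, *Myl9* and *Tagln* thus did not overlap between the genotypes, as 2.04% of all tested genes did in this direction. *Tpm1* (0.31 ± 0.19, edgeR adjusted p = 0.791) and *Cnn2* (0.02 ± 0.24, edgeR adjusted p = 0.999) did not pass. *Cnn1*, *Tpm2*, *Actg2* and *Mylk* had too few counts. *Cnn1* read 1.84, 0, 0, 5.54 and 0 CPM in WT and 29.7, 14.4 and 8.84 CPM in Meis1_cKO.

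**Figure D4:**
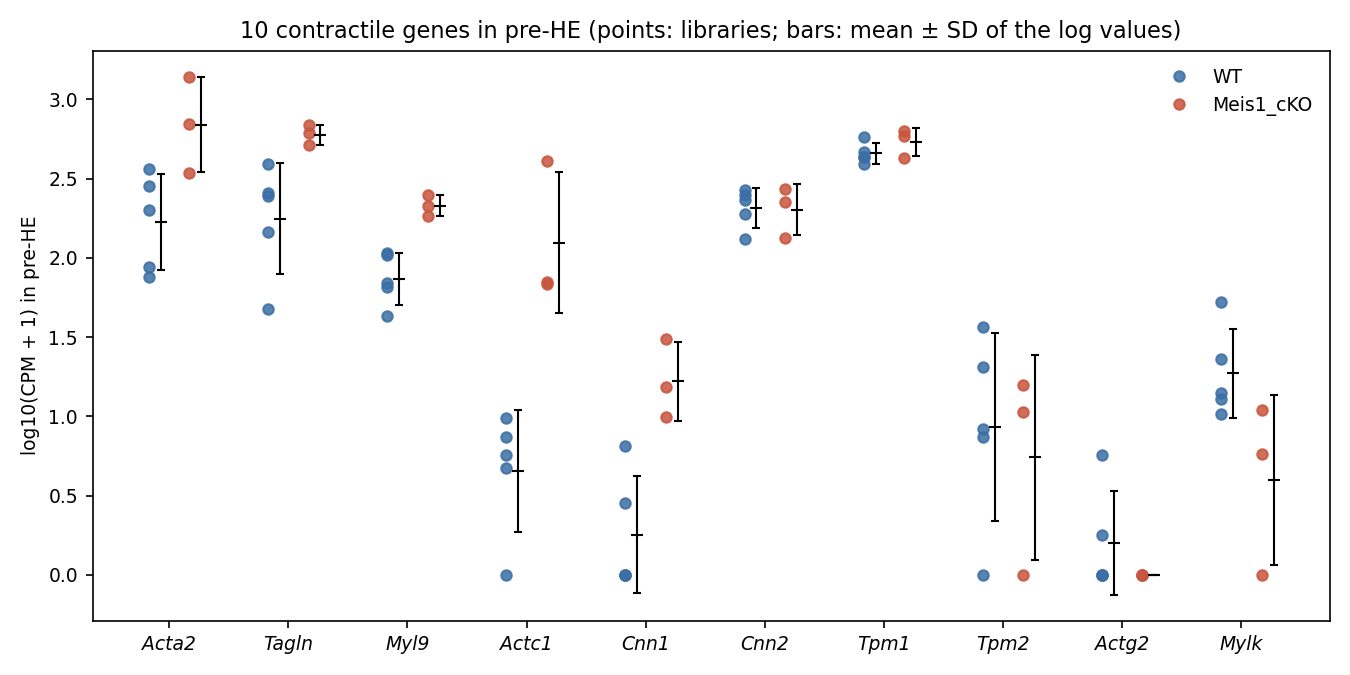
Levels of the 10 genes in pre-HE as log10(CPM + 1); points are libraries (blue WT, n = 5; red Meis1_cKO, n = 3) and bars the mean ± SD of the log values. *Actc1*, *Myl9* and *Tagln* do not overlap between genotypes, *Acta2* overlaps in 1 WT library, and *Cnn2* and *Tpm1* overlap widely.

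The *Actc1*, *Acta2*, *Tagln* and *Myl9* counts of Meis1_cKO pre-HE lay largely in few cells. Of the *Actc1* UMIs of Meis1_cKO pre-HE, 12 of 14, 11 of 14 and 46 of 46 came from a single cell of Meis1_cKO 1, 2 and 3. The cells above 1% held 93.6%, 79.3% and 97.4% of the *Acta2* UMIs in Meis1_cKO 1 to 3, and 69.9% in WT 4. They held 85.5%, 65.7% and 74.1% of the *Tagln* UMIs and 59.5%, 56.8% and 53.6% of the *Myl9* UMIs of the Meis1_cKO libraries. In the remaining cells *Acta2* stood at 100, 158 and 9.61 CPM in Meis1_cKO and at 86.6, 74.7, 201, 112 and 283 CPM in WT, and *Actc1* at 5.57, 0 and 0 CPM in Meis1_cKO. The cells were left out for these same counts, and only Meis1_cKO 1 to 3 and WT 4 held any. The removal by itself thus draws the genotypes together, and nothing is read from the remaining values. When the pre-HE cell with the highest contractile share was left out of each of the 8 libraries, an alternative chosen after the data were seen, 0 of the 5 contractile genes tested passed edgeR at an adjusted p under 0.1. Of these, 3 had an unadjusted p under 0.05. This removal also chose cells by the tested genes, so the lost calls show only how far the sums depend on 1 cell a library. The log2 fold changes were then 1.79 ± 0.47 for *Acta2* (adjusted p = 0.168), 0.89 ± 0.27 for *Myl9* (adjusted p = 0.307) and 1.06 ± 0.43 for *Tagln* (adjusted p = 0.615), and *Actc1* no longer had enough counts.

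**Figure D5:**
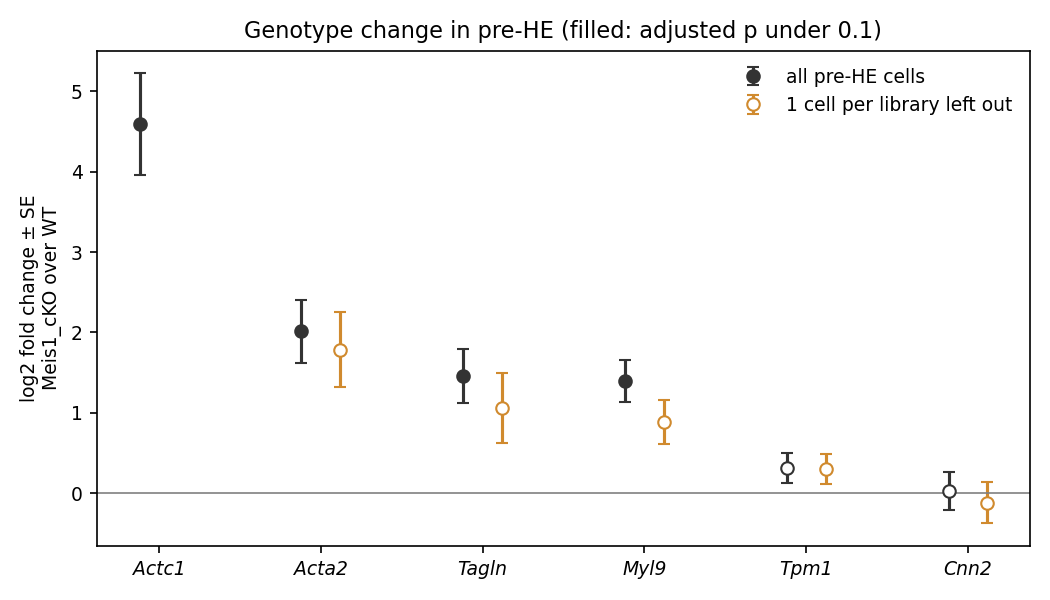
Log2 fold change of Meis1_cKO over WT in pre-HE sums, with its standard error, for 6 contractile genes in all cells (black) and with 1 cell per library left out (orange); filled points passed at an adjusted p under 0.1. The 4 filled black points have no filled counterpart once 1 cell per library is left out, and *Actc1* is then no longer tested.

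The share of pre-HE cells with a UMI was compared as well, also chosen after the data were seen. *Acta2* was found in 40.0%, 29.2% and 13.3% of thinned Meis1_cKO cells and in 12.8%, 33.3%, 36.4%, 23.0% and 12.5% of WT cells. The ranges overlapped, and the difference of 3.90 percentage points did not pass (two-sided exact permutation test, p = 0.679, adjusted p = 0.905 over 4 genes; the smallest p it allows is 0.0357). *Tagln* (29.3% against 31.0%) and *Myl9* (32.1% against 23.7%) did not pass either, with adjusted p of 0.929 and 0.714 in that exact test. *Actc1* was found in 9.0% ± 2.73 of Meis1_cKO and 3.33% ± 2.56 of WT cells, at the smallest p of the exact permutation test and an adjusted p of 0.143. Without thinning its p in the exact test was 0.0714.

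Depth moved with the genotype. When the median UMIs per cell of a library entered the edgeR fit, *Actc1* still passed. *Acta2*, *Myl9* and *Tagln* kept their direction without passing, at log2 fold changes of 1.40 ± 0.67, 1.21 ± 0.47 and 1.17 ± 0.57 (SE), with larger errors than before. Nothing is read from the *Actc1* calls in this paragraph, because *Actc1* had enough counts to be tested only through Meis1_cKO. With WT 5 as the only WT library, where the spread comes from the Meis1_cKO libraries alone and WT 5 is assumed to vary like them, *Actc1* (4.47 ± 0.83) and *Acta2* (1.57 ± 0.35) passed, and *Myl9* (1.05 ± 0.43) and *Tagln* (1.27 ± 0.36) did not. All 3 Meis1_cKO libraries were shallower than WT 1 to 4, so depth and genotype cannot be told apart between those libraries, and the part of depth in the lost calls was not tested further. Without Meis1_cKO 1, *Actc1* and *Myl9* still passed, at 5.06 and 1.52 on the log2 scale, and *Acta2* (1.39) and *Tagln* (1.46) did not.

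The same comparison over all libraries passed for 0 contractile genes in aEC, EHT and vEC. It was not so in libraries 1 to 3 alone, without WT 4 and WT 5. There *Acta2*, *Actc1* and *Tagln* passed in EHT, at log2 fold changes of 0.84, 1.69 and 1.06. In vEC *Tagln*, *Mylk* and *Cnn2* passed, at 1.21, 0.36 and 0.28, and all of these were higher in Meis1_cKO. Calls rose over all genes as well in that setting, to 278 of 7921 in EHT and 1201 of 12050 in vEC. Over all libraries 0 of 6 tested passed in aEC, and 0 of 9540 genes (0%) passed there in all, with 1000 at an unadjusted p under 0.05 and 11 by DESeq2. In EHT 0 of 8 passed, against 0.127% of all genes, and in the pooled vEC clusters 0 of 8, against 0.0164%. DESeq2 also called 0 contractile genes in each, while *Mylk* in aEC, *Mylk* and *Tpm2* in EHT, and *Mylk*, *Tpm2* and *Cnn2* in vEC had an unadjusted p under 0.05 by edgeR. *Acta2* gave log2 fold changes of 0.32 ± 0.31 in EHT and 0.66 ± 0.67 in vEC, and *Actc1* 1.06 ± 0.52 and 0.63 ± 0.55. A test of the difference itself, the genotype change in pre-HE minus that in aEC with the library as a block, passed for 5 of 9489 genes (0.0527%) and for 3 of 9 contractile genes. These were *Actc1* (5.31 ± 0.93, edgeR adjusted p = 0.000839), *Tagln* (1.85 ± 0.37, adjusted p = 0.00761) and *Myl9* (1.61 ± 0.33, adjusted p = 0.0135). *Actc1* had 0 to 9 UMIs in aEC of each library, so that its counts come mainly from Meis1_cKO pre-HE and the size of its difference depends on how low counts are fitted. *Acta2*, with 0 to 7 UMIs in aEC of each library, gave 0.26 ± 0.99 and did not pass. Without the top cell of each library 0 of 7 contractile genes tested passed this test too, with *Tagln*, *Myl9* and *Mylk* at an unadjusted p under 0.05. It shares its pre-HE samples with the comparison above.

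Of 35 other genes of the contractile and actin machinery, 23 were tested between genotypes in pre-HE and 0 passed. Of the 23, 16 had a log2 fold change above 0, as 49.9% of all genes did. Their median log2 fold change was 0.20, against -0.00 over all genes and 1.43 over the 6 contractile genes tested. The 5 with the highest level in WT pre-HE were *Actb* and *Actg1*, the cytoplasmic actins, *Myl6* and *Myl12a*, myosin light chains, and *Cald1*, which encodes caldesmon. *Actb* was read at 5025 ± 2015 CPM in WT and 7656 ± 416 CPM in Meis1_cKO (log2 fold change 0.65, edgeR adjusted p = 0.332), and *Cald1* at 738 ± 198 and 690 ± 78.7 CPM (-0.05, adjusted p = 0.990). Of 19 TGF-beta and endothelial-to-mesenchymal transition genes 10 were tested and 0 passed, with a median of -0.03. *Vim*, *Fn1*, *Smad7*, *Smad6* and *Zeb2* were the highest of them. *Fn1*, which encodes fibronectin, was read at 1096 ± 381 CPM in WT pre-HE and 206 ± 34.9 CPM in WT aEC. *Smad7*, an inhibitor of TGF-beta signalling, was read at 249 ± 72.0 CPM in WT and 162 ± 5.66 CPM in Meis1_cKO pre-HE (-0.62, edgeR adjusted p = 0.521). *Myocd*, the smooth muscle coactivator of serum response factor, had 0 counts in pre-HE of both genotypes.

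Among the 10 genes, *Tagln* followed *Acta2* most closely (Pearson r = 0.904) and *Myl9* followed *Actc1* (0.791). With the 10 genes themselves left out, the genes whose levels were most like *Acta2* were *Nkx2-3*, a homeobox factor (Pearson r = 0.811), *Trim47* (0.807), *Bmx*, a tyrosine kinase of arterial endothelium (0.799), *Setbp1* (0.794) and *Ifitm3* (0.786). The correlations were taken on log2(CPM + 1) over 79 sums of a library and cell type, among 7950 genes with a mean of at least 10 CPM in pre-HE, and sums of a library share its depth. *Nkx2-3* was read at 229 CPM in WT pre-HE, 196 CPM in Meis1_cKO pre-HE and 0.569 CPM in WT aEC. Outside the 10 genes, *Actc1* was followed most closely by *Pde3a* (0.740), *Ltbp1* (0.725), *Clu* (0.708), *F10* (0.702) and *Cmas* (0.700). Each of these 5 was present in both pre-HE and megakaryocytes, as *Pde3a* at 87.0 and 61.9 CPM in WT.

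In EHT *Acta2* was lower than in pre-HE and also lay in a minority of cells. *Acta2* UMIs lay in 22 of 64, 17 of 45, 8 of 31, 26 of 68 and 29 of 118 EHT cells of WT 1 to 5, and the top cell held 17.2% to 47.9% of them. Of the 102 WT EHT cells with an *Acta2* UMI, 95 held *Cdh5* or *Pecam1* and 40 held *Ptprc*, which encodes the blood antigen CD45. Over all 326 WT EHT cells the numbers were 288 and 134. In Meis1_cKO EHT, 40 of 47 cells with *Acta2* held *Cdh5* or *Pecam1* and 7 held *Ptprc*. Megakaryocytes held *Myl9* widely, in 63.7% of thinned WT cells, while their *Acta2* and *Tagln* means came mostly from WT 5 and Meis1_cKO 1. There 64 of 194 and 105 of 208 *Acta2* UMIs lay in a single cell.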

How the data were processed

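The authors deposited 1 table of raw UMI counts, not normalized, for 28014 genes and 6 antibody tags in 15168 cells, and a second giving each cell's sample and cell type, other values with no unit. Per the labels, libraries were made with 10x 3′ chemistry (v3), and the submitters' processing notes name Cell Ranger 3.0.2 and build mm10. Before deposit the authors kept cells with over 2000 genes and under 10% mitochondrial reads, integrated the samples and clustered them into the 10 types used here. No column of other samples was present. Members and gene lists were chosen with earlier results of these data known.

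Counts were summed per library and cell type (sums of at least 10 cells) and compared by the quasi-likelihood test of edgeR 4.0.16 under R 4.3.3 (TMM scaling, filterByExpr, two-sided, Benjamini-Hochberg, adjusted p under 0.1). Standard errors were derived from the fold change and its F statistic. Each library was a separate pool of embryos, so p-values measure the spread between pools. In a simulation that shifted 200 genes by 1.5 (log2), edgeR found 99% in the pre-HE comparison (3490 genes), with 13.5% false calls. The shifted genes were drawn from those above the median level. Counts gathered in 1 cell were not simulated, so the 99% need not hold for such genes. Shares of cells were taken after thinning to 5000 UMIs. Pre-HE cells above and below the library median were compared by exact sign flips over libraries, with 0.5 counts added, adjusted over 11 lists at 0.05. Intervals are at 95% confidence and cover counting error only. Scrublet (scanpy 1.11.5, 30 components) called 83 of 15168 cells doublets, 0 of them in pre-HE, and they were kept; the sort also gated doublets. Named genes were the 10 members, fixed defining markers, the 5 highest in WT pre-HE of each of 2 further lists with any that passed, and the 5 most like *Acta2* and *Actc1*. The other steps ran in Python 3.11.15 with scipy 1.17.1, pandas 2.3.3, numpy 2.4.6 and, for figures, matplotlib 3.10.9. The alternatives, each differing from the analysis in a single choice except for the replicate block, which also left out WT 4 and WT 5, were RLE, DESeq2 1.42.0, no filter, adjusted p under 0.05, sums of at least 20 cells, depth as a covariate, WT 5 alone, a replicate block, each library left out, only the outermost cells of the ranking, ranking by *Acta2*, thinning to 5000 or 3000 UMIs, and cells with mesenchymal UMIs or doublets left out. Leaving out 1 cell per library, libraries 1 to 3 unblocked and shares between genotypes were added after the data were seen.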

Additional observations from a re-analysis of the deposited data

Results flagged for a closer look

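The genotype change in pre-HE differed from that in aEC for *Actc1* (by 5.31 on the log2 scale), *Tagln* (by 1.85) and *Myl9* (by 1.61) in a test of the difference itself with edgeR. *Actc1* had 0 to 9 UMIs in aEC of each library and 0 to 11 in pre-HE of each WT library. Its counts thus come mainly from Meis1_cKO pre-HE, and its difference was fixed by the group in which it is high. The genes were also chosen by their counts in pre-HE against the other endothelium. Without the top cell of each library, 0 of 7 contractile genes tested passed.

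Of 26 sets of WT or of all libraries checked for a library far from the others, 2 had one, about as many as the 1 in 20 that chance gives. *Actg2* stood at 4.67 CPM in pre-HE of WT 2, which is 1 UMI, and *Actc1* at 26.6 CPM in EHT of WT 4, with 25 of its 68 UMIs in a single cell.

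The table holds a row for a Cre sequence (CreERT2) that no comparison used. It had 34 UMIs in the Meis1_cKO libraries, 12, 3 and 19 in Meis1_cKO 1 to 3, and 0 in the 5 WT libraries, where 0 allows up to 0.0131 CPM by the limit of 3 counts, against 0.356 CPM in Meis1_cKO.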

How the results depend on the processing

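Of the genotype results in pre-HE, the 4 contractile genes that passed kept their direction under every alternative that tested them. The number that passed fell to 2 with DESeq2, to 1 with depth as a covariate, to 2 with WT 5 as the only WT library and to 0 without the top contractile cell of each library. Leaving out a library gave 2 to 4, the 2 without Meis1_cKO 1. *Actc1*, which had enough counts only through Meis1_cKO, was in each of these counts above 0. *Tagln* was lost under 11 of 19 alternatives, *Acta2* under 4 and *Myl9* under 3. Over all genes 9 passed with DESeq2, 65 with no filter, 53 in sums of at least 20 cells, 10 at an adjusted p under 0.05, 2 with depth as a covariate, 3 with WT 5 alone, 7 without the top cells, and 8 to 79 with a library left out, the 79 without WT 5. In aEC 219 genes passed with no filter and 408 without WT 5, in EHT 237 and 261, and in vEC 136 and 1647. The difference between pre-HE and aEC passed for 1 to 3 contractile genes with a library left out (1 without Meis1_cKO 1 or without Meis1_cKO 3) and for 0 without the top cells.

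Replicate numbers 1 to 3 recur in both genotypes. Same-numbered pre-HE sums correlated at 0.064, -0.034 and 0.037 in their deviations, so the numbers were not taken as pairs. With the number as a replicate block in libraries 1 to 3, 4 contractile genes passed in pre-HE, 1 in aEC, 3 in EHT and 4 in vEC. Without the block the same libraries gave 4, 0, 3 and 3. Calls rose over all genes as well. With the block 137 of 3451, 731 of 9141, 450 of 7921 and 2351 of 12050 genes passed, in the same order of cell types. Without it 103, 295, 278 and 1201 of as many genes passed. In vEC 0 to 1 contractile genes passed with a library left out, the 1 without WT 5. In aEC and EHT 0 contractile genes passed with any library left out.

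*Cnn2* changed sign, at -0.016 with no filter, -0.19 with depth as a covariate, -0.063 with WT 5 alone, -0.12 without the top cells, and from -0.18 to 0.18 with a library left out. *Acta2* in the difference between pre-HE and aEC ran from -0.033 to 1.08 with a library left out, the lowest without WT 2. Between high and low groups of pre-HE, the endothelial ratio kept its sign in all 13 alternatives and did not pass in any (-0.11 to -0.07 with a library left out), as did the arterial ratio, which was -0.24 to -0.20. No list passed under any alternative. The skeletal muscle genes had counts in the groups of WT 4 alone, so nothing is read from their sign. Signs changed for EHT genes (0.22 ranked by *Acta2*), mural genes (-0.066 between outermost cells), cardiac genes (-0.23 ranked by *Acta2*, -0.085 thinned), TGF-beta genes (-0.066 ranked by *Acta2*, -0.0068 thinned), myeloid genes (-0.25 between outermost cells, and -0.25 to 0.22 with a library left out), skeletal muscle genes (-0.19 to 0.40 with a library left out) and cell cycle genes (-0.37 between outermost cells, -0.076 without cells with mesenchymal UMIs, and -0.082 to 0.51 with a library left out). The CD44 ratio was 0.09 to 0.45 with a library left out. The *Acta2* share of WT pre-HE cells was 20.4% to 26.4% and of Meis1_cKO cells 21.3% to 34.6% with a library left out. The cause of these changes was not tested. Pre-HE held 11 to 87 cells per library, which limits every value on single cells.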
